A study of Sus scrofa with 15 samples.

Results

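The comparison described here is between peripheral blood of domestic pigs on the day of birth (day 0) and at weaning (day 30), in 6 of the 15 small RNA libraries of a series that also sampled days 60, 180 and 360. Each age had 3 libraries, which the series describes as biological replicates. No treatment or genotype is given for either age, and the labels do not say whether the same animals were bled more than once, and the p-values measure the spread between these samples only. All 295 mature microRNAs (miRNAs) listed in the deposited table were taken, less 2 that repeated another one in every library, which left 293. miR-199b-3p held the counts of miR-199a-3p, and miR-9-1 those of miR-9, so neither pair can be told apart.

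miRNAs are short RNAs cut from hairpin precursors. One strand, or arm, of the hairpin is loaded into an Argonaute protein and guides it to matching messenger RNAs, whose translation and stability fall. Whole blood mixes miRNAs of red cells, platelets, white cells and plasma, and several miRNAs are tied to 1 of these sources: miR-451 and miR-144 to red-cell precursors, miR-142 to all white-cell lineages, miR-150 to mature lymphocytes. In bulk blood, a lower level through fewer cells of a type cannot be told apart from less of the miRNA in each cell.

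The 6 libraries held between 5771711 and 9356399 counts over these miRNAs, and 248 to 268 miRNAs had at least 1 count in them. Levels are given as normalised CPM, which are counts relative to the library total after scaling with the trimmed mean of M-values (TMM). By counting error alone, an miRNA with no count could have had 3 counts, which is 0.321 to 0.520 CPM in these libraries if left unscaled. The red-cell miRNA miR-451 was the most abundant miRNA in 4 of the 6 libraries, and behind others in newborn replicates 1 and 2. Of the other blood markers, miR-144, miR-142-3p and miR-142-5p were low in newborn replicates 1 and 2, with levels given below. The epithelial markers were near 0 (miR-429 with 0 or 1 count in each library, miR-205 with 1 to 39).

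The library labelled day 0 replicate 3 stood apart from the other newborn libraries. Over the 215 miRNAs tested, its median absolute log2 difference was 1.72 from newborn replicate 1 and 1.56 from newborn replicate 2, whereas those 2 differed by 0.35. From the day 30 libraries it differed by 0.76, 0.63 and 0.83, and the day 30 libraries differed from each other by 0.50 to 0.57. For 160 of the 215 miRNAs the level of newborn replicate 3 was nearer to the day 30 mean than to the mean of newborn replicates 1 and 2. A fit that weights libraries by their scatter (voom with sample quality weights) gave newborn replicate 3 a weight of 0.0893, the lowest of the 15 libraries, beside 1.51 and 2.33 for the other newborn libraries. Fold changes below are therefore given with all libraries and then without this one, which is called the reduced set. In the reduced set day 0 has only 2 libraries, newborn replicates 1 and 2, which lay close together. Its standard errors and p-values rest on those 2 at day 0.

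The most abundant miRNAs show the split. miR-451 took 7.47%, 8.97% and 59.4% of the counts in the 3 newborn libraries and 41.1%, 28.3% and 40.1% at day 30. miR-92a, of the miR-17-92 cluster that drives growth of blood progenitors, took 19.7%, 18.7% and 1.56% at birth and 5.35%, 6.85% and 2.27% at day 30. Newborn replicates 1 and 2 therefore lay on opposite sides of all day 30 libraries from newborn replicate 3 for both miRNAs. The same held for miR-486, an erythroid miRNA, at 12.5%, 7.13% and 1.48% against 2.36%, 3.07% and 1.70%, and for miR-423-3p at 7.86%, 7.31% and 0.581% against 1.72%, 1.87% and 1.05%. miR-30d was at 7.29%, 7.97% and 1.89% against 3.13%, 3.51% and 2.25%. By contrast, let-7i was lower in all 3 newborn libraries, at 1.76%, 1.51% and 2.42%, than at day 30, at 3.75%, 5.42% and 7.42%. miR-7 was at 0.286%, 0.351% and 2.10% against 2.33%, 3.33% and 5.26%, and miR-148a-3p at 0.902%, 2.11% and 7.85% against 12.2%, 8.78% and 20.2%. For miR-7 newborn replicate 3 lay just below the lowest day 30 share, and for miR-148a-3p it lay between the other newborn libraries and day 30.

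**Figure D1:**
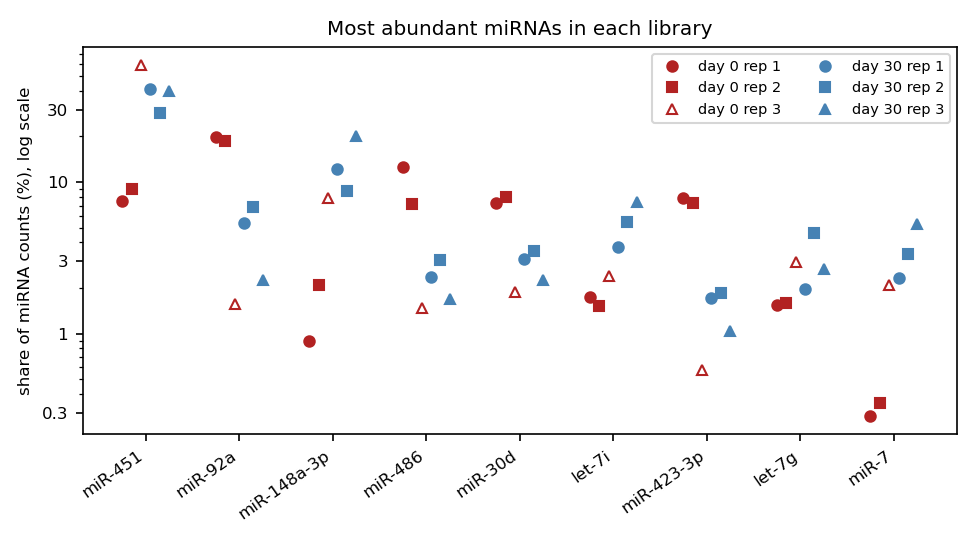
Share of all miRNA counts (percent, log axis) of the 9 miRNAs among the 6 most abundant at either age, 1 point per library, red for day 0 and blue for day 30. Newborn replicate 3 (open triangle) has 59.4% miR-451 and 1.56% miR-92a, against 7.47% and 8.97% miR-451 and 19.7% and 18.7% miR-92a in the other newborn libraries.

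With all libraries, 35 of 215 miRNAs changed from birth to day 30 (16.3%), 9 upward (4.19%) and 26 downward (12.1%), at an edgeR adjusted p under 0.05. At an unadjusted p under 0.05 there were 76. Without newborn replicate 3, 126 of 231 changed (54.5%), 56 upward (24.2%) and 70 downward (30.3%). All 35 miRNAs called with all libraries were among the 126, in the same direction. With the 215 miRNAs of the first fit kept as the tested set, which was chosen after seeing the data, the second count was 118. The libraries of the 2 ages did not overlap for 50 of the 215 miRNAs (23.3%), and for 152 (70.7%) once newborn replicate 3 was set aside. Of the 35, 25 did not overlap. The median log2 fold change over all tested miRNAs was -0.08 with all libraries (-0.36 scaled by library totals, -0.28 on TPM) and -0.32 without newborn replicate 3. Of the calls, 25.7% were upward with all libraries (37.5% by DESeq2, 47.7% by voom with weights). The share was 44.4% without newborn replicate 3 (30.6% by library totals, 25.5% and 27.9% by limma on TPM, 54.5% by DESeq2).

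**Figure D2:**
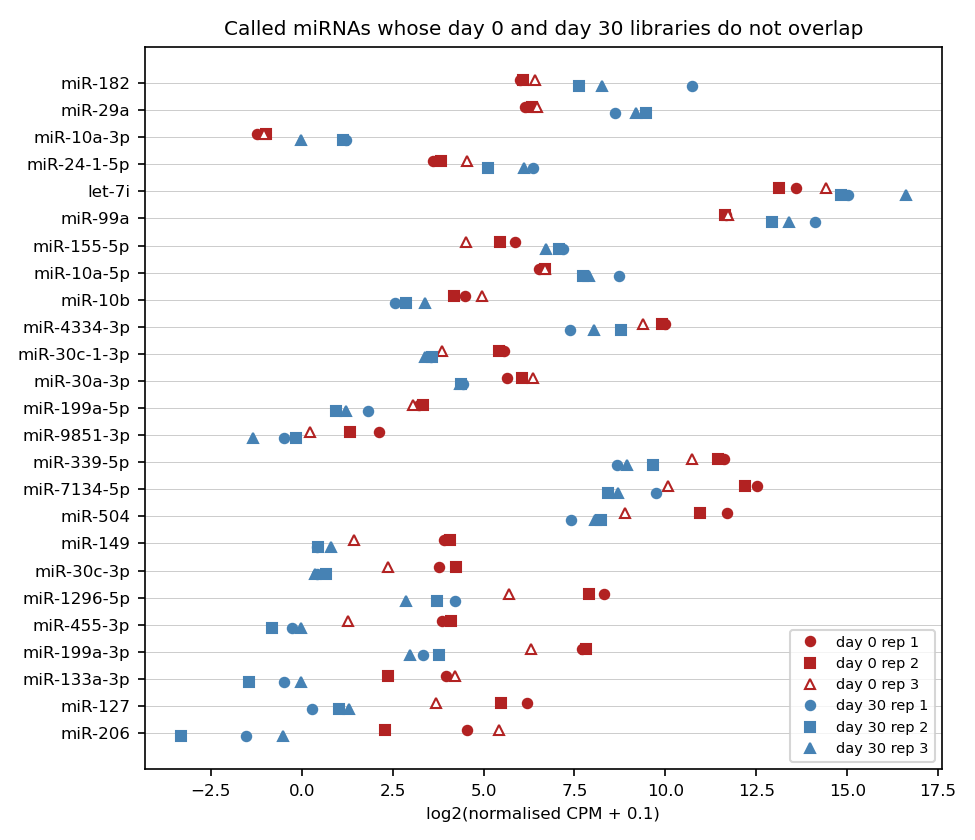
Level of each of the 25 called miRNAs whose day 0 (red) and day 30 (blue) libraries do not overlap, as log2(normalised CPM + 0.1), 1 point per library, ordered by fold change. Newborn replicate 3 (open triangle) lies on the newborn side for each of these, as the no-overlap rule requires, and is the newborn library nearest to day 30 for most of the larger falls.

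Of the rising miRNAs, miR-29a had the lowest p. It represses collagens and DNA methyltransferases and lies beside miR-29b on the pig genome. Its level was 70.0, 80.1 and 88.6 normalised CPM at birth and 390.0, 703 and 583 at day 30. The log2 fold change was 2.81 ± 0.42 (± SE throughout, with 3 libraries at each age in this fit, edgeR adjusted p = 0.000569). The newborn libraries lay close together, newborn replicate 3 included, and the lowest day 30 library was over 4 times as high as the highest newborn one. The change was 2.92 with newborn replicate 3 left out (edgeR adjusted p = 0.000288).

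Its family members were scarce. miR-29b was at 1.09, 0.709 and 6.01 normalised CPM at birth and 6.88, 11.0 and 10.4 at day 30, and miR-29c at 0.437, 0.506 and 4.65 and 3.56, 5.09 and 3.86. Newborn replicate 3 was the highest newborn library for both, within the day 30 range for miR-29c only. Neither passed with all libraries (edgeR adjusted p = 0.141 and 0.38). Both rose in the fit without newborn replicate 3, by 3.40 and 3.13 (edgeR adjusted p = 0.008 and 0.0119).

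miR-182 belongs to the cluster of miR-183, miR-96 and miR-182, which is transcribed as 1 unit and is also expressed in sensory cells and in activated lymphocytes. It was at 63.4, 67.6 and 85.1 normalised CPM at birth and at 1708, 198 and 307 at day 30, a log2 fold change of 3.36 ± 0.68 (edgeR adjusted p = 0.00418, and 3.53 with edgeR adjusted p = 0.00306 in the reduced set). All day 30 libraries were above all newborn ones, and day 30 replicate 1 was over 5 times as high as either of its fellows. Without day 30 replicate 1 the change was 1.86 (edgeR adjusted p = 0.0304). miR-183 and miR-96-5p, from the same cluster, had day 30 levels of 233, 4.89 and 12.2 and of 19.4, 0.603 and 2.08 normalised CPM, against 10.9, 10.9 and 3.39 and 0.109, 0.405 and 1.16 at birth. Both were also highest by far in day 30 replicate 1. Day 30 replicate 3 lay above every newborn library for both, and day 30 replicate 2 lay within the newborn range. Neither passed the test with all libraries (edgeR adjusted p = 0.0659 and 0.0691), and miR-96-5p passed without newborn replicate 3 (edgeR adjusted p = 0.0286).

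let-7i, of the let-7 family that accumulates as cells differentiate, was at 12436, 8843 and 21924 normalised CPM at birth and at 33019, 29231 and 99696 at day 30. The groups did not overlap, with newborn replicate 3 the highest newborn library and day 30 replicate 3 about 3 times above the other day 30 libraries. Its log2 fold change was 1.91 ± 0.51 (edgeR adjusted p = 0.0194, and 2.38 with edgeR adjusted p = 0.00138 in the reduced set), and it was 1.15 without day 30 replicate 3 (edgeR adjusted p = 0.182). Day 30 replicate 3 also had the lowest TMM factor of the 6 libraries, 0.744 beside 1.10 to 1.85 in the others, which raises every normalised level in it. Scaled by library totals alone, the let-7i change was 1.54 (edgeR adjusted p = 0.0182). As a share of counts, let-7i was again highest in that library, at 7.42%, beside 3.75% and 5.42%.

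Of the 9 let-7 members, let-7i was the only one called with all libraries, 1 of 9 beside 4.19% of all tested miRNAs called higher. Their median log2 fold change was 0.73, against -0.08 over all. let-7f, let-7g and miR-98 rose too once newborn replicate 3 was left out. let-7f was at 2835, 2345 and 10916 normalised CPM at birth and 10760.2, 11082 and 21756 at day 30, with newborn replicate 3 inside the day 30 range, and its change without that library was 2.52 (edgeR adjusted p = 0.000185). let-7a, the most abundant newborn member in replicates 1 and 2, was at 16474, 14553 and 7893 and at 12821, 9982 and 16805, with groups that overlapped. let-7d-3p, the other arm of the let-7d hairpin, fell without newborn replicate 3 (log2 fold change -1.07, edgeR adjusted p = 0.035).

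miR-99a, which shares a cluster with let-7c, rose from 3266, 3189 and 3372 to 17592, 7835 and 10822 normalised CPM, a log2 fold change of 1.88 ± 0.45 (edgeR adjusted p = 0.00981, and 1.94 with edgeR adjusted p = 0.00524 in the reduced set). The 3 newborn libraries lay close together, and day 30 replicate 1 was the highest at weaning. let-7c from the same cluster was at 2757, 2249 and 647 and 1921, 1171 and 1378 normalised CPM, with overlap, and was not called. Of the other members of the miR-99/100 and miR-125 list, miR-99b, miR-100, miR-125a and miR-125b, none was called with all libraries. miR-125a, a regulator of blood stem cells, then fell without newborn replicate 3, by 2.69 on the log2 scale (edgeR adjusted p = 0.00104). Its level was 59.2, 41.5 and 3.78 normalised CPM at birth and 5.28, 6.16 and 11.4 at day 30, with newborn replicate 3 below all day 30 libraries. miR-99b, from the same cluster as miR-125a, fell in the reduced set too (log2 fold change -1.51). Of the 5 members of the list, 1 rose and 2 fell in that fit, beside 24.2% and 30.3% of all tested miRNAs.

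miR-155-5p is induced in activated lymphocytes and macrophages. It was at 58.2, 43.7 and 22.8 normalised CPM at birth and at 144, 134 and 106 at day 30, without overlap, and rose by 1.62 ± 0.44 on the log2 scale (edgeR adjusted p = 0.0226, and 1.36 with edgeR adjusted p = 0.0147 in the reduced set). Newborn replicate 3 was the lowest newborn library here, so it lay farther from day 30 than its fellows. Both arms of the miR-10a hairpin, which lies in a HOX gene cluster, rose together. miR-10a-5p went from 91.2, 104 and 102 to 422, 214 and 239.8 normalised CPM (log2 fold change 1.56 ± 0.47, edgeR adjusted p = 0.0352, and 1.61 with edgeR adjusted p = 0.0198 in the reduced set). miR-10a-3p was far scarcer, at 0.328, 0.405 and 0.388 and 2.21, 2.08 and 0.891 (log2 fold change 2.18 ± 0.63, edgeR adjusted p = 0.0281, and 2.23 with edgeR adjusted p = 0.0212 in the reduced set), and its newborn counts of 3, 4 and 4 are near the limit of detection. The newborn levels of miR-10a-5p lay between 91.2 and 104 normalised CPM in all 3 libraries.

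miR-10b, the paralogue of miR-10a in another HOX cluster, went the other way. Its level was 22.4, 18.0 and 30.8 normalised CPM at birth and 5.77, 7.23 and 10.4 at day 30, a log2 fold change of -1.61 ± 0.44 (edgeR adjusted p = 0.0227, and -1.34 with edgeR adjusted p = 0.0142 in the reduced set), with newborn replicate 3 the highest of the 6. miR-24-1-5p, the minor arm of a miR-24 hairpin, rose from 12.03, 14.1 and 23.1 to 82.2, 34.9 and 69.5 normalised CPM (log2 fold change 1.92 ± 0.56, edgeR adjusted p = 0.0281, and 2.28 with edgeR adjusted p = 0.00769 in the reduced set). The major arm, miR-24-3p, was at 452, 1249 and 1820.1 and 1307, 650.2 and 748, with overlap and no call. The last miRNA called higher, miR-7136-5p, was named after its values were seen: day 30 replicate 1 was at 142 normalised CPM, and the other 5 libraries were between 0 and 0.219. Without day 30 replicate 1 its log2 fold change was -1.16 (edgeR adjusted p = 0.798). Its call also ended without newborn replicate 1 or 2.

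Of the 26 falling miRNAs, miR-199a-3p had the lowest p. It is abundant in platelets and in mesenchymal cells, and its counts include miR-199b-3p. It was at 208, 223 and 79.6 normalised CPM at birth and at 10.1, 13.5 and 7.72 at day 30, a log2 fold change of -4.03 ± 0.60 (edgeR adjusted p = 0.000569, and -4.34 with edgeR adjusted p = 4.94e-05 in the reduced set). Newborn replicate 3 was the lowest newborn library and still over 5 times above every day 30 library. The other arm, miR-199a-5p, fell from 9.30, 9.92 and 8.24 to 3.44, 1.81 and 2.23 (log2 fold change -1.88 ± 0.55, edgeR adjusted p = 0.0303, and -1.92 with edgeR adjusted p = 0.0127 in the reduced set). miR-214, whose gene neighbours a miR-199a gene, was at 62.7, 49.0 and 4.46 normalised CPM at birth and 8.11, 6.70 and 4.60 at day 30. Here newborn replicate 3 lay below all day 30 libraries, and the log2 fold change was -2.58 ± 0.73 with it and -3.07 without it (edgeR adjusted p = 0.0258 and 0.000309).

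These miRNAs stand on a list of vessel-wall and mesenchymal miRNAs, of which 3 of 6 tested members fell and none rose, beside 12.1% of all tested miRNAs called lower. The 3 were both arms of miR-199a and miR-214 from a neighbouring gene, so they do not count as separate loci. In the reduced set 4 of 7 fell and none rose, beside 30.3%. The median log2 fold change of the list was -2.09, against -0.08 over all. miR-145-5p of smooth muscle, on the same list, was at 17.6, 34.4 and 5.33 and 3.07, 5.36 and 3.12 normalised CPM and fell without newborn replicate 3 only (log2 fold change -2.73, edgeR adjusted p = 0.008). miR-143-3p, transcribed with miR-145, was at 15.4, 28.7 and 49.3 and 14.1, 14.6 and 34.6, with overlap. miR-199b-5p was at 1.20, 1.92 and 7.27 and 0.860, 1.94 and 1.19, with overlap, and was not called in either fit. Summed over the 8 members of the list, the level was 315, 348 and 155 normalised CPM at birth and 39.7, 44.6 and 53.9 at day 30.

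miR-1296-5p fell from 319, 237 and 51.4 to 18.5, 13.0 and 7.13 normalised CPM (log2 fold change -3.97 ± 0.67, edgeR adjusted p = 0.00171, and -4.39 with edgeR adjusted p = 4.94e-05 in the reduced set). miR-504 was at 3335, 1974 and 472 at birth and 171, 301 and 266 at day 30 (log2 fold change -2.97 ± 0.67, edgeR adjusted p = 0.00691, and -3.39 with edgeR adjusted p = 0.000394 in the reduced set). miR-7134-5p, a pig miRNA, was at 5916, 4663 and 1086 and 854, 345 and 416 (log2 fold change -2.85 ± 0.53, edgeR adjusted p = 0.00269, and -3.26 with edgeR adjusted p = 4.94e-05 in the reduced set). In all 3, newborn replicate 3 was the lowest newborn library by over 4 times, yet above every day 30 library. The 3p arm of miR-7134 was more abundant, at 27104, 20483 and 3423 and 8409.8, 4579.6 and 7623 normalised CPM. Newborn replicate 3 lay below the day 30 libraries for that arm, which was called only without it (log2 fold change -1.76, edgeR adjusted p = 0.0221).

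miR-339-5p and miR-4334-3p fell with all newborn libraries high. miR-339-5p was at 3139, 2792 and 1712 normalised CPM at birth and 408, 814 and 490.4 at day 30 (log2 fold change -2.16 ± 0.45, edgeR adjusted p = 0.00449, and -2.35 with edgeR adjusted p = 0.000882 in the reduced set). miR-4334-3p was at 1024, 961 and 668 and 166, 439 and 264 (log2 fold change -1.61 ± 0.42, edgeR adjusted p = 0.0183, and -1.75 with edgeR adjusted p = 0.00387 in the reduced set). For both the lowest newborn library was replicate 3, and it still lay above the highest day 30 library. The other arm, miR-339-3p, was scarce at 44.1, 31.0 and 16.1 and 16.1, 33.4 and 26.3 normalised CPM, and its groups overlapped.

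In the miR-30 family, which restrains mesenchymal and fibrotic programmes, 3 of 10 members fell and none rose with all libraries, beside 12.1% of all tested miRNAs called lower, and all 3 were minor arms. In the reduced set 5 fell and 3 rose, beside 30.3% and 24.2% of all tested. miR-30a-3p fell from 49.98, 66.3 and 82.4 to 21.5, 20.9 and 20.3 normalised CPM (log2 fold change -1.66 ± 0.52, edgeR adjusted p = 0.0433, and -1.45 with edgeR adjusted p = 0.0286 in the reduced set). miR-30c-3p fell from 13.6, 18.8 and 5.04 to 1.23, 1.47 and 1.19 (edgeR adjusted p = 0.00607, and 0.000765 in the reduced set), and miR-30c-1-3p from 47.5, 42.7 and 14.3 to 11.5, 11.8 and 10.4 (edgeR adjusted p = 0.0455, and 0.00273 in the reduced set). The major arm miR-30a-5p was at 1782, 2275 and 3824 and 732, 1212 and 989, also without overlap, but was not called (log2 fold change -1.43 ± 0.57, edgeR adjusted p = 0.0917, and -1.03 with edgeR adjusted p = 0.143 in the reduced set). The major arm miR-30c-5p was at 1767, 1659.8 and 5438 and 3887, 3379 and 3569.9, with newborn replicate 3 the highest of all 6, and rose without that library (log2 fold change 1.11, edgeR adjusted p = 0.014). Within miR-30c the arms thus moved in opposite directions between newborn replicates 1 and 2 and day 30.

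Over the whole table, 57 hairpins had both arms listed and 35 had both tested. The signs of the 2 arms matched in 24 of the 35. Both arms were called for miR-10a and miR-199a, and 1 arm for 8 hairpins. miR-148b is one of these: miR-148b-3p, which targets DNA methyltransferases, was at 19585, 23238 and 5443 normalised CPM at birth and 6049, 4053 and 4083 at day 30 (log2 fold change -1.77 ± 0.50, edgeR adjusted p = 0.0258, and -2.15 with edgeR adjusted p = 0.000626 in the reduced set). Newborn replicate 3 lay within the day 30 range for it. Its paralogue miR-148a-3p, with the same family of targets, was at 6379, 12299.7 and 71197 and 107883, 47359 and 271650 normalised CPM. It was not called with all libraries (log2 fold change 2.25 ± 0.81, edgeR adjusted p = 0.0662) and rose by 3.94 without newborn replicate 3 (edgeR adjusted p = 0.000886).

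miR-27b-3p and miR-23b, neighbours in 1 cluster, had a different odd library. miR-27b-3p was at 1034, 8188 and 10639.8 normalised CPM at birth and 987, 1230.4 and 554 at day 30, and miR-23b at 125, 1045 and 1435 and 233, 208 and 124. Newborn replicate 1 lay within the day 30 range for both, while newborn replicates 2 and 3 were several times higher. miR-27b-3p was called (log2 fold change -2.84 ± 0.92, edgeR adjusted p = 0.0455, and -2.33 with edgeR adjusted p = 0.0484 in the reduced set), and miR-23b was not (edgeR adjusted p = 0.1, and 0.164 in the reduced set). miR-23a and miR-27a, from the paralogous cluster, were at 403, 521 and 701 and at 233, 294 and 182 in the newborn libraries, and at 599, 521 and 439.9 and 174, 232 and 163 at day 30. The groups overlapped for both, and neither was called.

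Some of the largest fold changes belonged to miRNAs of muscle and of an imprinted locus, all at low levels. miR-206, specific to skeletal muscle, had 212, 47 and 445 counts in the newborn libraries and 2, 0 and 4 at day 30, which is 23.2, 4.76 and 43.1 against 0.246, 0 and 0.594 normalised CPM (edgeR adjusted p = 0.00235, and 0.000982 in the reduced set). miR-133a-3p, of skeletal and heart muscle, had 141, 50 and 189 counts against 5, 4 and 6 (log2 fold change -4.49 ± 0.89, edgeR adjusted p = 0.004, and -4.11 with edgeR adjusted p = 0.00201 in the reduced set). Newborn replicate 3 was the highest library for both and newborn replicate 2 the lowest newborn one, so this signal did not follow the split among newborn libraries. At days 30, 60, 180 and 360 the mean of miR-133a-3p was 0.591, 0.0685, 0.265 and 1.14 normalised CPM. It thus passed the filter through its newborn level, so its call gives no support. miR-133b, in a cluster with miR-206, had 2, 6 and 26 counts at birth and none at day 30, and did not pass the filter. miR-1, the most abundant miRNA of heart and skeletal muscle, was at 5.80, 2.63 and 3.78 and 0.982, 1.74 and 4.31 normalised CPM, with overlap and no call.

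miR-499-5p, encoded in a myosin gene but counted here at higher levels than miR-1, was at 14.5, 8.81 and 70.6 normalised CPM at birth and 52.7, 65.9 and 103 at day 30. It rose without newborn replicate 3 (log2 fold change 2.70, edgeR adjusted p = 0.000946), so the called members of the muscle list did not share a direction in that fit. Of 4 tested members of the list, 2 fell with all libraries, beside 12.1% of all tested miRNAs called lower. Of these 2, miR-133a-3p passed the filter through its newborn level. The summed level of the 6 members of the list ranged from 21.9 to 139 normalised CPM at birth and from 54.5 to 109 at day 30. The part of other tissues in these values was not tested.

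miR-127 is expressed from the maternal copy of the imprinted DLK1-DIO3 locus, which holds many miRNAs active before birth. It fell from 72.5, 44.7 and 12.8 to 1.11, 1.94 and 2.38 normalised CPM (log2 fold change -4.57 ± 1.03, edgeR adjusted p = 0.00691, and -4.97 with edgeR adjusted p = 0.000982 in the reduced set). Of the 13 miRNAs from the locus, miR-127 alone passed the filter with all libraries. Its neighbour miR-432-5p had 30, 15 and 2 counts at birth and none at day 30, and miR-370, of the same locus, had 160, 90 and 7 and 0, 1 and 2. 5 more passed the filter in the fit without newborn replicate 3, through being high in newborn replicates 1 and 2, so their calls in that fit give no support. Summed over the 13 miRNAs, the locus stood at 99.3, 62.1 and 16.7 normalised CPM at birth and at 1.23, 2.14 and 3.41 at day 30, without overlap.

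miR-296-3p, from the imprinted GNAS locus, was at 1802, 1288 and 241 normalised CPM at birth and 256, 118 and 185 at day 30 (log2 fold change -2.57 ± 0.61, edgeR adjusted p = 0.00981, and -3.01 with edgeR adjusted p = 0.000185 in the reduced set). miR-335, also on the list of other imprinted loci, went the other way. It was not called with all libraries (log2 fold change 1.97, edgeR adjusted p = 0.12) and was called higher in the reduced set (log2 fold change 3.54). miR-744 was at 2319.8, 2119 and 309 and 459, 225 and 246, miR-1343 at 352, 378 and 60.9 and 88.2, 53.8 and 60.0, and miR-2320-5p at 915, 703 and 158 and 236, 190.0 and 109. In these 4 falling miRNAs, newborn replicate 3 lay inside the day 30 range. The same was true of miR-574 and miR-7144-5p, while miR-455-3p, miR-149 and miR-9851-3p did not overlap and were under 20 normalised CPM in every library. miR-210, the miRNA induced by hypoxia, narrowly missed: it was at 122, 123 and 134 normalised CPM at birth and 32.1, 66.2 and 28.1 at day 30, without overlap (log2 fold change -1.59 ± 0.58, edgeR adjusted p = 0.0708). It passed without newborn replicate 3 (log2 fold change -1.52, edgeR adjusted p = 0.0444), and its 3 newborn libraries lay close together.

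Of the 35 calls, 12 held in all 6 fits that each left out 1 of the libraries of these ages. 11 held in every alternative that could test them: miR-29a and miR-182 upward, and miR-199a-3p, miR-1296-5p, miR-504, miR-7134-5p, miR-339-5p, miR-206, miR-133a-3p, miR-127 and miR-455-3p downward. Among them miR-133a-3p had passed the filter through its newborn level, so its place here gives no support. miR-455-3p was similarly scarce at day 30, with means of 11.3 normalised CPM at birth and 0.699 at day 30, and calls for the same caution. Its other arm, miR-455-5p, was not called in either fit (log2 fold change -0.73, and 0.13 in the reduced set). miR-149 was lost only when the 6 libraries were fitted alone (edgeR adjusted p = 0.0580). The call of miR-99a ended without day 30 replicate 1, that of miR-30c-3p without day 30 replicate 3, and that of miR-10b without day 30 replicate 1 or 2. let-7i lost its call without newborn replicate 1 or 2 or day 30 replicate 3, and miR-155-5p without newborn replicate 2 or day 30 replicate 1 or 2. miR-296-3p lost it without newborn replicate 1 or day 30 replicate 3, and miR-27b-3p without newborn replicate 2 or any day 30 library. miR-24-1-5p, miR-4334-3p and miR-574 lost it without newborn replicate 1 or 2 or day 30 replicate 1 or 3, miR-744 without newborn replicate 1 or 2 or day 30 replicate 2 or 3, and miR-10a-3p without newborn replicate 1 or 2 or day 30 replicate 1 or 2. miR-10a-5p, miR-199a-5p, miR-214, miR-148b-3p, miR-30a-3p, miR-30c-1-3p, miR-1343, miR-2320-5p, miR-7144-5p and miR-9851-3p lost it whichever of the 5 libraries other than newborn replicate 3 was left out.

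**Figure D3:**
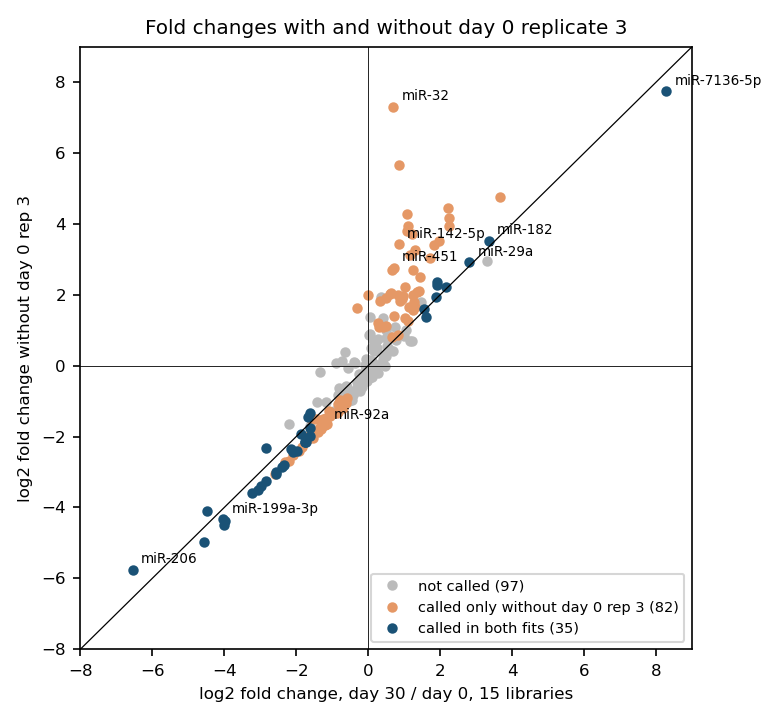
Log2 fold change of day 30 over day 0 for the 214 miRNAs tested in both fits, with all 15 libraries (x) and without newborn replicate 3 (y), both from edgeR, with the line of equality. The 35 miRNAs called in both fits lie near the line, while of the 82 called only without newborn replicate 3 the rises lie above it and the falls on or just below it.

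Of 117 miRNAs called without newborn replicate 3 that were also tested with it, 92 had a level in newborn replicate 3 nearer to day 30 than to the other newborn libraries, against 160 of all 215 tested and 16 of the 35 called with all libraries. miR-142-5p, found in all white-cell lineages, was at 25.2, 36.4 and 486 normalised CPM at birth and 273, 435 and 277 at day 30, and miR-142-3p at 6.67, 8.40 and 111 and 67.2, 113 and 116. Newborn replicate 3 was within the day 30 range for miR-142-3p and above it for miR-142-5p, and newborn replicates 1 and 2 were below every day 30 library. Without newborn replicate 3 their log2 fold changes were 3.43 ± 0.45 and 3.73 ± 0.97 (edgeR adjusted p = 7.67e-05 and 0.00603, the latter 0.0643 when newborn replicate 1 was also left out), against 0.85 ± 0.77 and 1.23 ± 0.99 with it.

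miR-144 and miR-451, processed from 1 cluster in red-cell precursors, behaved alike. miR-144 was at 6.67, 3.75 and 97.6 normalised CPM at birth and 62.5, 118 and 53.3 at day 30. miR-451 was at 52808, 52420.1 and 538674 and 362176, 152794 and 538786. Without newborn replicate 3 the log2 fold changes were 3.94 ± 0.79 and 2.77 ± 0.47 (edgeR adjusted p = 0.00132 and 0.000446), and with it 1.12 ± 0.94 and 0.71 ± 0.74. miR-486, also erythroid, went the other way without newborn replicate 3 (log2 fold change -1.65 ± 0.42, edgeR adjusted p = 0.00524), at 88516, 41657 and 13449 at birth and 20838, 16543 and 22916 at day 30.

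miR-7, among the 6 most abundant miRNAs at day 30, also rose in this fit, at 2026, 2051 and 19047 normalised CPM at birth and 20525, 17961 and 70746 at day 30 (log2 fold change 4.19 ± 0.79, edgeR adjusted p = 0.000946). miR-21, raised in inflammation and in myeloid cells, was at 392, 459.9 and 3988 and 2779.9, 4039 and 5188 (log2 fold change 3.26 ± 0.65, edgeR adjusted p = 0.00132). miR-101, which targets the histone methyltransferase EZH2, was at 24.2, 20.4 and 221 and 94.3, 132 and 197 (log2 fold change 2.69 ± 0.54, edgeR adjusted p = 0.00132). In each of these, newborn replicates 1 and 2 were close together, and newborn replicate 3 lay far above them and within or above the day 30 range. miR-15a, of the miR-15/16 family that limits the cell cycle, changed sign: it was at 57.9, 36.5 and 441 and 154, 162 and 114, with a log2 fold change of -0.31 ± 0.76 with newborn replicate 3 and 1.64 ± 0.60 without it (edgeR adjusted p = 0.814 and 0.0314).

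Among the falls called only without newborn replicate 3, miR-181a, known for setting how strongly T cells respond to antigen, was at 21349.9, 15208 and 1583 normalised CPM at birth and 6383, 6277 and 2848 at day 30 (log2 fold change -1.78 ± 0.38, edgeR adjusted p = 0.00201). miR-423-3p was at 55558, 42691 and 5263 and 15139.9, 10075 and 14058 (log2 fold change -1.87 ± 0.38, edgeR adjusted p = 0.00132). miR-331-3p was at 197, 150.1 and 45.2 and 35.1, 52.3 and 32.2. For miR-181a and miR-423-3p, newborn replicate 3 was below every day 30 library, and for miR-331-3p it lay inside their range. The miRNAs miR-7137-3p, miR-7137-5p, miR-7139-3p, miR-7142-3p and miR-30b-3p completed the 10 largest such falls of at least 50 normalised CPM without overlap, with log2 fold changes from -2.53 to -1.71. Of these 10, miR-7134-3p lost its call when newborn replicate 1 or day 30 replicate 2 or 3 was left out as well (edgeR adjusted p up to 0.101), and miR-7142-3p when newborn replicate 2 was (edgeR adjusted p = 0.0662).

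Among the members of the miR-17-92 cluster and its paralogues the directions parted. miR-92a and miR-19b each have a gene in that cluster and in a paralogous one, so their counts cannot be assigned to either. miR-92a was at 138982, 109501 and 14139.6 normalised CPM at birth and 47144, 36928 and 30466 at day 30 and fell without newborn replicate 3 (log2 fold change -1.67 ± 0.38, edgeR adjusted p = 0.00311). miR-17-5p was at 314, 293 and 1116 and 788, 1426 and 1073 and rose in the same fit (log2 fold change 1.88 ± 0.57, edgeR adjusted p = 0.0137), as did miR-18a, miR-19a, miR-19b and miR-20a. In the paralogous cluster miR-106a rose in that fit too, while miR-18b, miR-20b and miR-363 were not called. None of the 11 tested members of the cluster and its paralogues was called with all libraries, beside 16.3% of all tested miRNAs. In the reduced set 6 of the 11 rose and 1 fell, beside 24.2% and 30.3% of all tested miRNAs. With all libraries the fold change was above 0 for 8 of 11 (median log2 value 0.93), against 99 of 215 and -0.08 over all.

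**Figure D4:**
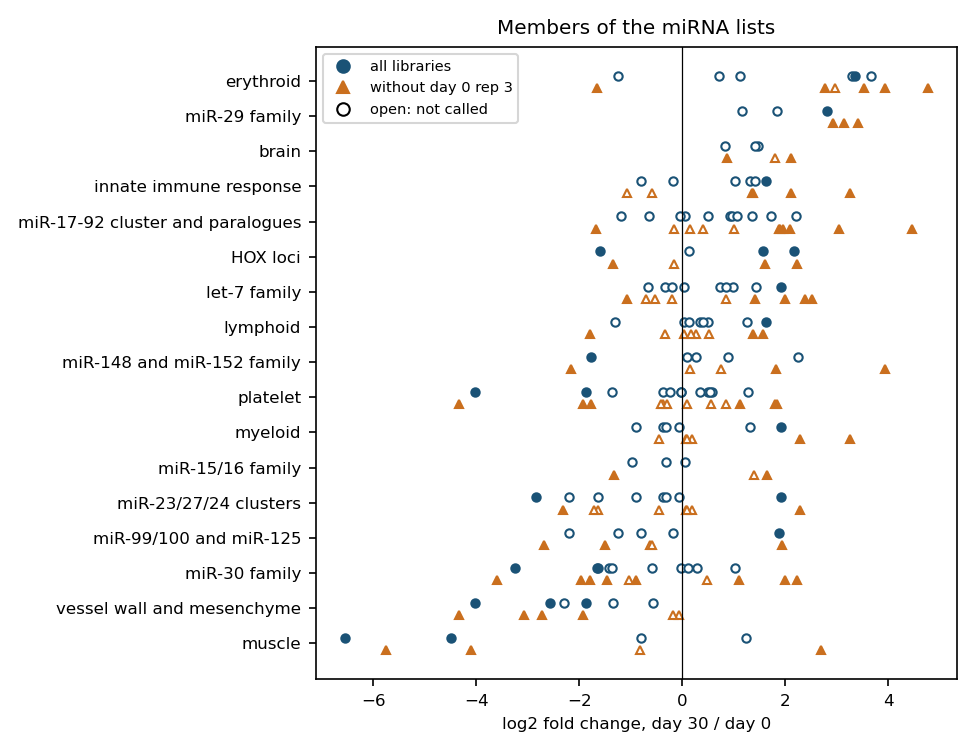
Log2 fold change of day 30 over day 0 for the members of each miRNA list with at least 3 tested members, with all libraries (blue circles) and without newborn replicate 3 (orange triangles), for members tested with all libraries; filled symbols passed the edgeR test. All members of the miR-29 list and most of the erythroid and miR-17-92 lists lie farther to the right without newborn replicate 3. The exceptions, which lie farther to the left, are miR-486, miR-183, miR-92a, miR-20b and miR-363. The vessel-wall and mesenchyme list lies to the left of 0 in both.

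The other lists held few calls with all libraries. In the lymphoid list only miR-155-5p was called, 1 of 8 upward, beside 4.19% of all tested miRNAs called higher. In the reduced set 2 of the 8 rose and 1 fell, beside 24.2% and 30.3% of all tested miRNAs, so the share of rises was near that over all. miR-150 was at 2017, 1022 and 529.6 normalised CPM at birth and 1168, 1801 and 1578 at day 30, and miR-342 at 922, 902 and 469 and 1027, 1105 and 900.1, both with overlap. Newborn replicate 3 was the lowest of the 6 libraries for both. miR-155-5p was also the 1 call among the 6 innate immune miRNAs, beside the same 4.19%. In the reduced set 4 of these 6 rose, beside 24.2% of all tested. miR-146a-5p, which restrains NF-kB signalling, narrowly missed at 631, 503 and 937 and 1306, 1416 and 1509.5 normalised CPM, without overlap (log2 fold change 1.03 ± 0.36, edgeR adjusted p = 0.0572). miR-146a-5p passed without newborn replicate 3 (log2 fold change 1.35, edgeR adjusted p = 0.00524).

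In the platelet list 2 of 12 fell, both from miR-199a, and none rose, beside 12.1% of all tested miRNAs called lower. In the reduced set 3 of the 12 fell and 3 rose, beside 30.3% and 24.2% of all tested miRNAs, so neither share stood out. miR-126-3p, of platelets and endothelium, was at 130.0, 92.8 and 279 normalised CPM at birth and 236, 196 and 279 at day 30, and miR-151-3p at 12100.5, 11035 and 17359.6 and 24202, 9079 and 27502, with overlap. The myeloid list held 1 riser among 6 tested members, miR-24-1-5p, and the erythroid list 1 among 6, miR-182, beside 4.19% of all tested miRNAs called higher. In the reduced set 4 of the 6 erythroid miRNAs rose and 1 fell, and of 7 tested myeloid miRNAs 2 rose and 1 fell. The erythroid rises were miR-451 and miR-144 of 1 cluster and miR-182 and miR-96-5p of another, so they are not 4 separate loci. The myeloid fall was miR-503, which was tested in the reduced set only, so its call gives no support. Over all tested miRNAs 24.2% rose and 30.3% fell in that fit, so the share of myeloid rises was near that over all. The erythroid median log2 fold change was 2.21 with all libraries and 3.25 without newborn replicate 3, and it was 0.96 without day 30 replicate 1. Of 3 tested members of the brain list none was called with all libraries, and 2 rose in the reduced set, beside 24.2% of all tested miRNAs. miR-9, which is also induced in neutrophils and monocytes, was at 20.8, 21.7 and 59.0 and 65.8, 91.7 and 114 normalised CPM, without overlap (log2 fold change 1.42 ± 0.48, edgeR adjusted p = 0.0544, and 2.12 with edgeR adjusted p = 0.00154 in the reduced set). The other was miR-128, at 2784, 2686 and 2701 and 5488, 4240 and 4859, also without overlap (log2 fold change 0.84 ± 0.32, edgeR adjusted p = 0.0802, and 0.86 with edgeR adjusted p = 0.0315 in the reduced set). Neither of the 2 liver miRNAs was called with all libraries, with miR-122 at 5.47, 3.54 and 2.42 and 5.16, 0.871 and 1.04. miR-192, the other liver miRNA, was at 20.1, 24.8 and 131 and 92.1, 69.6 and 109. It alone of the 2 rose in the reduced set (log2 fold change 2.03, edgeR adjusted p = 0.0131), beside 24.2% of all tested. No member of the epithelial list or of the X-linked list of miR-424 and miR-503 passed the filter with all libraries. In the reduced set 1 member of each list passed and was called lower. For the epithelial list it was miR-205, at 4.27 and 1.01 normalised CPM at birth and 0.123, 0.469 and 0.445 at day 30. miR-205 passed through being high in newborn replicates 1 and 2, so its call gives no support. For the X-linked list it was miR-503 (log2 fold change -2.47). Summed over its 9 members, that list was at 2.62, 3.44 and 6.98 normalised CPM at birth and 1.23, 1.88 and 0.594 at day 30. miR-503 passed the filter only once newborn replicate 3 was left out, so its call gives no support either.

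Levels at the later ages place the day 30 values, with 3 libraries per age. Means ± SD at days 60, 180 and 360 were 934 ± 131, 684 ± 158 and 404 ± 199 normalised CPM for miR-29a and 92525 ± 4499, 142653 ± 16333 and 159249 ± 27358 for let-7i, against 559 ± 158 and 53982 ± 39635 at day 30. miR-182 was at 162 ± 22.2, 133 ± 42.3 and 447 ± 219, against 1708, 198 and 307 in the day 30 libraries. miR-99a was at 6187 ± 1395, 14213 ± 6625 and 15840.4 ± 4228 and miR-155-5p at 148 ± 21.8, 191 ± 47.0 and 167 ± 80.2. Of the falls, miR-199a-3p was at 10.8 ± 2.61, 5.22 ± 0.592 and 4.85 ± 2.98 and miR-1296-5p at 4.90 ± 2.18, 4.01 ± 1.04 and 4.90 ± 2.10, all under the lowest newborn libraries of 79.6 and 51.4. miR-206 was at 0.104 ± 0.00425, 1.51 ± 1.58 and 12.7 ± 6.68, so its day 360 mean was again within the newborn range of 4.76 to 43.1. miR-30a-3p had a day 60 mean inside its newborn range, at 54.4 ± 22.4, 25.0 ± 15.2 and 10.6 ± 5.11. These ages were fitted together with days 0 and 30 and share the estimate of the spread, and no test against day 0 is reported for them.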

How the data were processed

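Small RNA libraries were made from peripheral blood at 5 ages with 3 libraries each. The authors deposited 1 table with read counts and with TPM for each miRNA and library. The submitters' processing notes name CASAVA 1.8.2 and HISAT2 2.0.4; no source used here gives the genome build or the miRNA annotation release. The deposited TPM entered alternatives only. Of 295 listed miRNAs, 2 duplicates were dropped. Tests were edgeR 4.0.16 quasi-likelihood fits (R 4.3.3) on the deposited counts of all 15 libraries, with 1 coefficient per age, TMM scaling, filterByExpr (minimum count 10, minimum total 15) and Benjamini-Hochberg adjustment over the miRNAs tested. SE is the fold change over the root of F. A call is an adjusted p under 0.05. The fit was tested on simulated data. Alternatives used limma 3.58.1, DESeq2 1.42.0, other scalings and filters, a replicate block, and each library left out.

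miRNAs were named by rule: the 10 largest called rises and falls without overlap and with a mean of at least 50 normalised CPM at either age, the 6 of highest share at each age, called list members, the 3 most abundant tested members of each list, the 10 largest each way called only without newborn replicate 3, and other arms. Grouping by seed was not done. Other miRNAs were chosen after their values were seen. The comparison, lists and rule were chosen with earlier results of these data known. Neighbouring genes come from RefSeq by name.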

Additional observations from a re-analysis of the deposited data

How the results depend on the processing

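Newborn replicate 3 decides most counts: leaving out 1 library gave 16 to 126 calls, 3 to 56 higher and 13 to 70 lower, against 35, 9 and 26. The count was 12 (2 higher, 10 lower) in the 6 libraries alone, 56 (21 higher, 35 lower) with DESeq2, 130 (62 higher, 68 lower) with voom weights and 22 (6 higher, 16 lower) with limma on log2(TPM + 1) or log2(TPM + 0.1). Library totals gave 27 (5 higher, 22 lower).

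Without newborn replicate 3, a further library left out gave 65 to 106 calls, 18 to 50 higher, and the 56 higher calls became 33 with library totals and 28 and 29 with limma on TPM. miR-15a, at -0.31, was at 1.64 with voom weights and 0.28 with limma on TPM, and ranged from -0.78 to 1.64 with 1 library left out. miR-7136-5p ranged from -1.16 to 8.99 in those fits. The cause was not tested. The replicate block gave 27 calls (123 without newborn replicate 3). Same-numbered libraries of both ages correlated at 0.222, -0.146 and 0.258 after the mean of each age was subtracted. Differently numbered ones ranged from -0.302 to 0.335. These few values cannot decide whether a replicate number marks the same animal, because newborn replicate 3 weighs heavily on the newborn means.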
